A study of Mus musculus with 12 samples.

Results

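The genes described are 8 noncoding RNAs known to stay largely in the nucleus, Malat1, Neat1, Miat, Meg3, Rian, Mirg, Snhg11 and Snhg14. They were taken by gene symbol from the table of counts, where they are 8 of 32546 genes, and each symbol matched 1 gene. The study collected RNA by photo-isolation chemistry, in which cDNA is made inside a tissue section with a light-blocked primer and only the cDNA of an irradiated region can later be amplified. The sections were mouse hippocampus, and the irradiated regions were CA1, CA3 and the dentate gyrus (DG). Each region was taken under 4 histological conditions, which gave 12 libraries of 4 barcoded replicates each and 48 replicates in all. All mice were male ICR mice (Slc:ICR) aged 8 weeks. In the fresh-frozen HCl condition the tissue was frozen without fixation and the sections were made permeable with 0.1 N HCl for 5 min. In the fresh-frozen TE condition the same kind of section was kept in TE buffer at 70 °C for 1 h. The fixed frozen condition used frozen sections of tissue fixed with 4% paraformaldehyde, and the paraffin condition used paraffin sections of tissue fixed with 4% paraformaldehyde; both were treated with TE. By the protocol, sections were also placed briefly in 4% paraformaldehyde on the slide, the unfixed ones included. The titles of the libraries name CA3, while the text of the series names CA2 in its place, and CA3 is used here.

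Most messenger RNAs are exported to the cytoplasm, but some long RNAs are kept in the nucleus, where they gather at splicing bodies, build nuclear bodies or stay at the locus that makes them. In the hippocampus several of them are abundant in neurons, and many come from imprinted loci, where only the copy from 1 parent is transcribed. Some are also hosts whose introns are processed into small nucleolar RNAs (snoRNAs) or microRNAs.

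The counts give the amount of each RNA in a region and cannot show where in the cell it lay, so nuclear retention is background from other work and was not measured. The biotype given in the table of counts is lncRNA for 7 of the 8 genes and protein_coding for Snhg11. Because every region holds several cell types, fewer cells of a type and less RNA per cell cannot be told apart in any of the values that follow.

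Counts are unique molecular identifiers (UMIs), which mark single captured molecules, and levels are given as CPM, the count scaled to the total of the replicate. A fresh-frozen HCl replicate held 127253 UMIs at the lowest, 933756 at the highest and 731106 at the median. For fresh-frozen TE the lowest total was 294445, the median 629964 and the highest 1111804. Replicates held fewer UMIs after fixation, from 52800 to 307145 with a median of 122520 in fixed frozen sections and from 35932 to 223055 with a median of 67528 in paraffin sections. The median share of mitochondrial UMIs was 2.89% in the fresh-frozen HCl, 3.56% in the fresh-frozen TE, 7.44% in the fixed frozen and 8.53% in the paraffin replicates. Depth and mitochondrial share therefore moved with the histological condition, and their part in the results was not tested. The share is understated in deep replicates, where a mitochondrial gene neared the number of possible UMIs, as given below. The study calls the barcoded replicates biological, but the mouse behind each one is not given in the sources used here. The p-values measure the spread between these replicates only and may be too small if replicates share a mouse. Each group is also 1 library, so a library and its group cannot be told apart.

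Over all 48 replicates Malat1 had 47249 UMIs, Meg3 47087, Snhg11 34542, Snhg14 16004, Miat 7310, Rian 2980, Neat1 1259 and Mirg 769. Rian had no UMI in 2 replicates and Mirg in 6, all of them fixed frozen, and the other 6 genes were seen in all 48. A UMI of 6 bases has 4096 possible sequences, and different molecules of a gene that draw the same UMI are counted once. The highest count of Malat1 in a replicate was 3500 UMIs, or 85.4% of the possible ones, and the highest of Meg3 was 2914, or 71.1%. The highest count of Snhg11 was 2315, or 56.5%, so that the highest levels of these 3 genes are understated. The mitochondrial gene mt-Rnr2 reached 4356 UMIs in a replicate, so the number of possible UMIs was not a strict limit. It was at 4093 to 4317 UMIs in the TE replicates, against 393 to 2861 in paraffin. The mitochondrial shares of deep fresh-frozen replicates are therefore understated too, and their differences between conditions cannot be told apart from depth.

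On the GRCm38 genome, 5 of the 8 genes lie in a pair of groups of neighbours. Malat1 (ENSMUSG00000092341, chr19:5795690-5802672, minus strand) and Neat1 (ENSMUSG00000092274, chr19:5824708-5845478, minus strand) are 22036 bases apart. On chromosome 12 the imprinted Dlk1-Dio3 domain holds Meg3 (ENSMUSG00000021268, chr12:109541001-109571726), Rian (ENSMUSG00000097451, chr12:109603940-109661716) and Mirg (ENSMUSG00000097391, chr12:109729764-109749460), all on the plus strand. Rian starts 32214 bases after the end of Meg3, and Mirg starts 68048 bases after the end of Rian. The other genes stand alone, Miat (ENSMUSG00000097767) at chr5:112213228-112229395 on the minus strand, Snhg11 (ENSMUSG00000044349) at chr2:158375638-158386145 on the plus strand and Snhg14 (ENSMUSG00000100826) at chr7:59307924-59975759 on the minus strand. In the annotation used here, Mirg spans 15 microRNA genes, Rian 4 microRNA and 13 snoRNA genes, Meg3 2 microRNA genes, Snhg11 2 snoRNA genes and Snhg14 208 snoRNA genes. The Snhg14 gene is 667836 bases long, and an exon at its far end overlaps Ube3a (chr7:59228750-59311536), which is read from the opposite strand and had 11389 UMIs. The counting command in the protocol of the study sets no strand, and with the defaults of featureCounts strand is then ignored and reads on exons of both genes are left out.

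**Figure D1:**
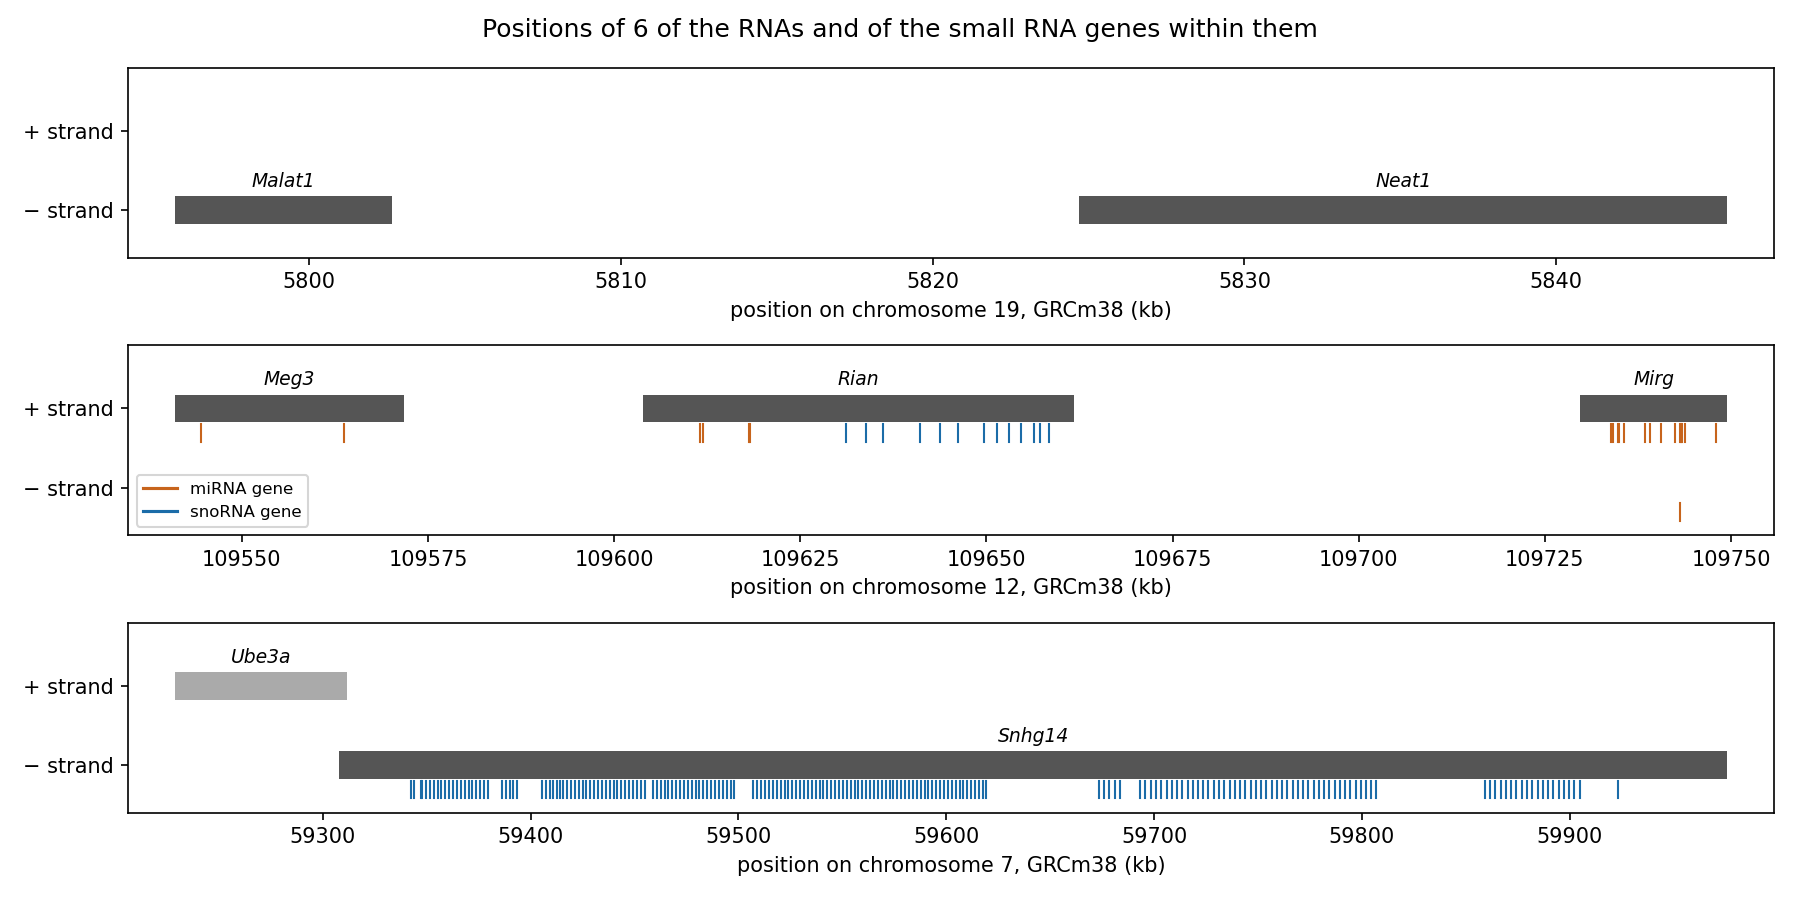
Positions in GRCm38 of Malat1 and Neat1 on chromosome 19, of Meg3, Rian and Mirg on chromosome 12 and of Snhg14 and Ube3a on chromosome 7, with position in kilobases (kb) on the x axis and ticks for microRNA (orange) and snoRNA (blue) genes. The Snhg14 gene spans 667836 bases and 208 snoRNA genes, while Malat1 and Neat1 span none.

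Reverse transcription in this method starts from a primer that ends in a run of T, which can pair with the tail of an RNA and also with a run of A inside it, so the runs of A of the transcripts are described. In the longest annotated transcript, the longest run of A was 12 bases in Malat1, 7 in Neat1, 4 in Miat, 15 in Rian, 5 in Mirg, 8 in Snhg11 and 17 in Snhg14. A run of at least 8 A was thus present in 4 of these 7 transcripts. The longest transcript of Meg3, whose sequence is not printed, held 7 such runs, the longest of 16 bases. Among genes of like length one was found for 66.7% of 222 genes for Meg3. Such a run is common in long transcripts, and among genes whose longest transcript was within 20% of the same length it was found for 56.6% of 2223 genes for Malat1, 59.8% of 1565 for Rian, 50.3% of 3254 for Snhg11 and 56.5% of 2304 for Snhg14. For the 3 transcripts without one, the share was 68.6% of 35 genes for Neat1, 36.5% of 6286 for Mirg and 64.4% of 1086 for Miat, against 27.2% of 32515 genes of any length. The longest runs are printed from 5′ to 3′ on the transcript strand with 20 bases on either side, and the capitals mark the run. Snhg11 held 3 runs of 8 A, and only the first of them is printed.
Malat1: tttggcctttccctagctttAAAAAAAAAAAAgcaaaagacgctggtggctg
Rian: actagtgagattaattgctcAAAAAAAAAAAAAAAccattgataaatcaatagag
Snhg11: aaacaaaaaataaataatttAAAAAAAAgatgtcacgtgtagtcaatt
Snhg14: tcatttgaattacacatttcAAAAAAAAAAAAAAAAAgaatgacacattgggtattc
They lie at bases 6654 to 6705 of Malat1-201, which has 6983 bases, at 5289 to 5343 of Rian-201, which has 8089, at 1311 to 1358 of Snhg11-201, which has 5864, and at 228 to 284 of Snhg14-211, which has 6861. Whether cDNA started at these runs was not tested, since the counts do not give positions within a gene.

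Marker genes were used to check the region labels. Of 6 genes that mark CA1 neurons, all 6 were called higher in CA1 than in DG in each of the HCl, TE and fixed frozen conditions, where called means an adjusted p below 0.05 in edgeR over all genes tested. In paraffin, 2 of the 5 tested were called higher in CA1 than in DG. The 8 DG genes were called lower in CA1 than in DG for 8 of 8 in HCl, 5 of 8 in TE, 5 of 7 in fixed frozen and 2 of 8 in paraffin. The CA3 genes were called higher in CA3 than in DG for 4 of 7 in HCl, 5 of 7 in TE, 5 of 6 in fixed frozen and 2 of 6 in paraffin, and no gene of these lists was called against its label in these comparisons. The DG genes were not set against CA3 in this check. Of them, Sema5b had a higher mean in CA3 than in DG in all 4 conditions. Its means were 75.3 against 52.3 CPM in HCl, 29.3 against 17.9 in TE, 37.9 against 13.8 in fixed frozen and 47.5 against 35.7 in paraffin. The other DG genes had a higher mean in DG than in CA3 in each condition. In the HCl, TE and fixed frozen libraries the markers of a region were thus mostly high in that region, and in paraffin fewer of them were called. The summed level of the CA1 genes in CA1 had a mean of 1159.9 CPM in HCl, 1235 in TE, 1275 in fixed frozen and 491 in paraffin. In paraffin CA1 the CA3 genes had a higher mean of 713 CPM, of which 610.3 came from Nptx1. Of the CA3 markers, Iyd was at 0 in CA1 in all 4 conditions and also in paraffin CA3.

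Together the 8 RNAs took from 0.912% to 1.29% of the UMIs of a fresh-frozen HCl replicate with a median of 0.990%. The share was 0.672% to 0.908% with a median of 0.824% in fresh-frozen TE, 0.176% to 0.312% with a median of 0.235% in fixed frozen and 0.682% to 1.11% with a median of 0.867% in paraffin. The fixed frozen replicates all lay below every replicate of the other conditions, and the HCl replicates all lay above every TE replicate, while paraffin overlapped both fresh-frozen conditions. Without Malat1 and Meg3 the mean shares were 0.454% in HCl, 0.290% in TE, 0.110% in fixed frozen and 0.369% in paraffin, in the same order from highest to lowest.

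The histological conditions were compared over all 3 regions, with 12 replicates against 12 and region as a covariate, to ask how fixation, embedding and permeabilization change what is recovered. The comparisons share samples, since fresh-frozen TE is the control of 3 of them, fixed frozen enters 2 and paraffin 2, so they are not independent. All 8 genes passed the filter of at least 10 UMIs in each of these comparisons. In HCl over TE, 6 of the 8 were called higher and 1 lower, against 16.2% of all genes tested called higher and 14.3% lower. In fixed frozen over fresh-frozen TE, all 8 were called lower, where 32.9% of all genes were called lower. There edgeR called 0 of them higher against 15.8% of all genes, with 0 higher at an unadjusted p below 0.05 and 0 higher in DESeq2 and in the other settings tried. All of the RNAs thus changed in the same direction in that comparison. In paraffin over fresh-frozen TE, 3 were called higher and 3 lower, against 13% and 26.4% of all genes. With DESeq2 size factors or total UMIs, 5 were called higher and 3 lower there, and with DESeq2 or filterByExpr 5 and 2. In paraffin over fixed frozen, 7 were called higher, against 13.7% of all genes, and edgeR called 0 lower, against 14.4%, with 0 lower at an unadjusted p below 0.05 and 0 lower in DESeq2. The median log2 fold change of the 8 was 0.50 in HCl over TE, where that of all genes tested was 0.10. It was -1.58 against -0.39 in fixed frozen over TE, 0.28 against -0.28 in paraffin over TE and 2.07 against 0.05 in paraffin over fixed frozen.

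The scaling between replicates moved these medians. With total UMIs in place of TMM factors, the median of all genes moved by 0.14 in HCl over TE. In paraffin over TE it moved by 0.21 with DESeq2 size factors and by 0.26 with total UMIs, and in paraffin over fixed frozen by 0.17 and 0.13. The share of higher genes among those called in HCl over TE was 53.1%, and 69.5% with total UMIs. In paraffin over TE that share was 33.0%, 46.3% with size factors and 49.5% with total UMIs, and in paraffin over fixed frozen it was 48.7%, 65.7% and 61.2%. The medians of all genes kept their direction under these scalings, while their size did not stay the same. Changes are therefore also given relative to the median of all genes under the same scaling. A gene is said to be higher or lower in a number of regions by its group means.

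**Figure D2:**
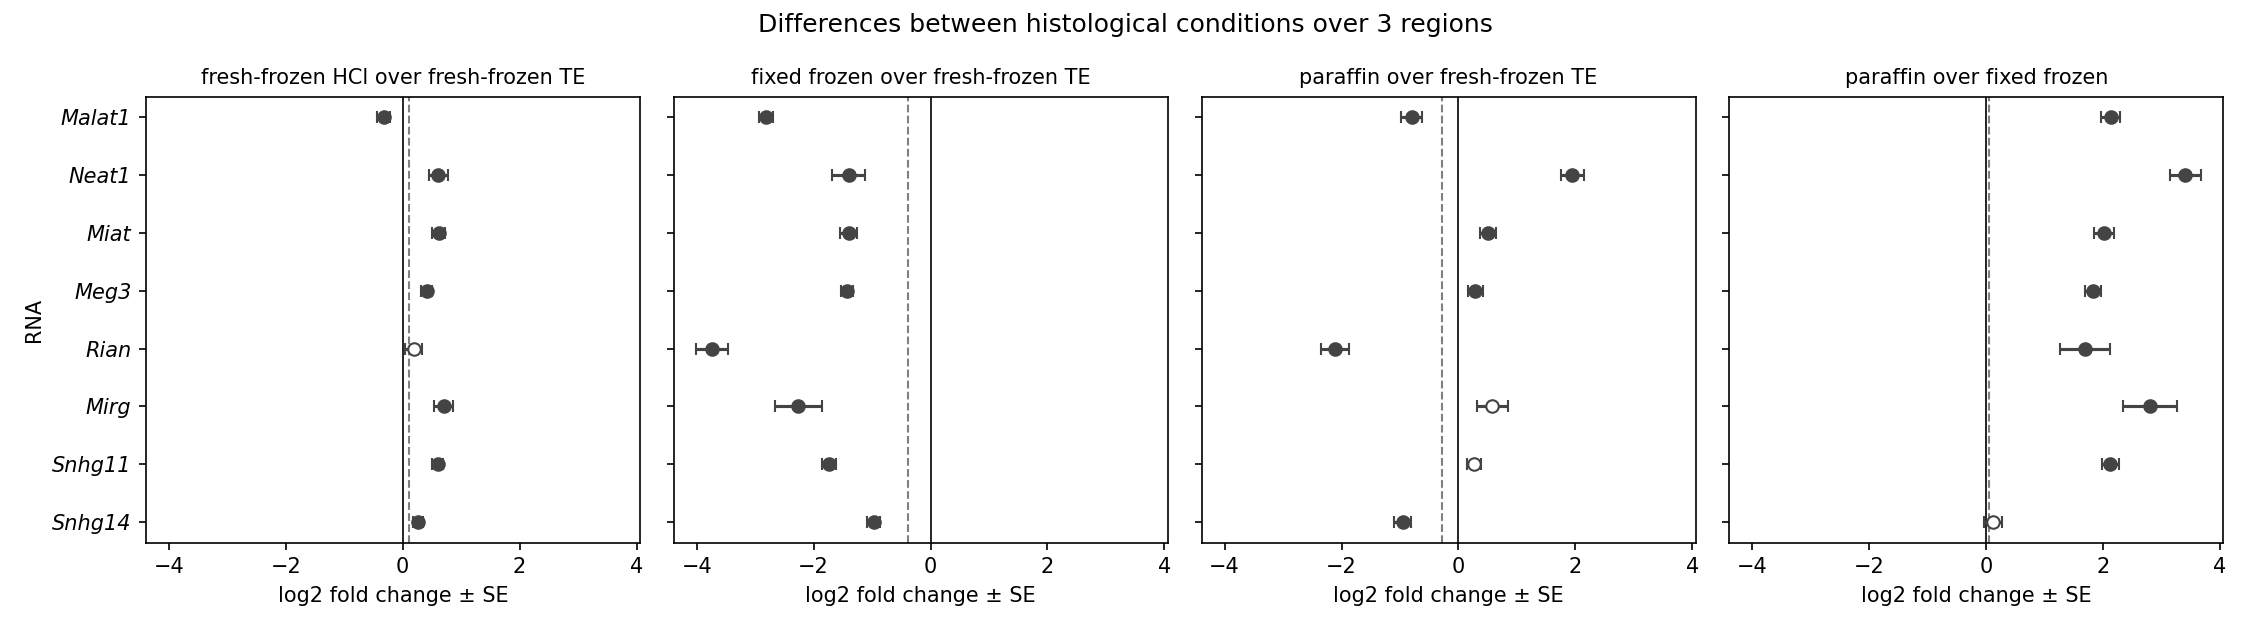
Log2 fold change of each of the 8 RNAs in the 4 comparisons of histological conditions, with bars for the standard error, filled points for adjusted p below 0.05 and a dashed line at the median of all genes tested. In fixed frozen over fresh-frozen TE all 8 points lie below the dashed line, which is at -0.39.

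Malat1 is an RNA of nuclear speckles, bodies that hold splicing factors. In the 12 fresh-frozen TE replicates Malat1 ranged from 1991 to 3905 CPM with a median of 2890.3, and in the 12 HCl replicates from 1587 to 4319.6 CPM with a median of 2417. In fixed frozen sections it ranged from 188 to 738 CPM with a median of 480.1, on 764 UMIs in all, and in paraffin from 167 to 4141 CPM with a median of 1846, on 2370 UMIs. All 12 fixed frozen replicates lay below all 12 of both fresh-frozen conditions, whereas the HCl, TE and paraffin values overlapped. In fixed frozen over TE the log2 fold change was -2.82 ± 0.12 (SE, adjusted p 9.12e-37), lower in 3 of 3 regions, and relative to the median of all genes it was -2.43 to -2.41 over the 3 scalings. It was called in every setting run, from -3.37 to -2.64 with adjusted p from 2.11e-168 to 2.03e-21. The mean of Malat1 was thus lowest in fixed frozen sections in each region. Paraffin over fixed frozen gave 2.13 ± 0.16 (SE, adjusted p 3.50e-31), with a higher mean in 3 of 3 regions, but in CA3 the replicates overlapped and the lowest of all was in paraffin. Paraffin over TE gave -0.80 ± 0.18 (SE, adjusted p 0.000117), with a lower mean in 3 of 3 regions but overlapping replicates in each. It was -0.53 with DESeq2 size factors and -0.50 with total UMIs, or -0.51 to -0.46 relative to the median of all genes. In paraffin the spread between replicates was wide. The 4 paraffin CA3 replicates had 3541, 685, 167 and 1078 CPM, from 428, 68, 8 and 43 UMIs. The first of them was far above the others, and without it paraffin over TE was -1.11. That call was absent in 2 of 10 settings, with adjusted p up to 0.177.

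HCl over TE gave -0.33 ± 0.12 (SE, adjusted p 0.0249) for Malat1, with a lower mean in 2 of 3 regions and overlapping groups in all 3. Malat1 was the only one of the 8 called lower there, and the call was absent in 8 of 10 settings, from -0.38 to -0.17 with adjusted p from 0.000821 to 0.513. It was also absent without HCl CA3 replicate 4, HCl DG replicate 3, HCl DG replicate 4, TE DG replicate 1 or TE DG replicate 2, where leaving out single replicates gave values from -0.42 to -0.28 with adjusted p from 0.00224 to 0.0604. Relative to the median of all genes the change was -0.43 to -0.42 over the 3 scalings.

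Neat1 is the RNA on which paraspeckles, another kind of nuclear body, are built. Its level in fresh-frozen TE ranged from 22.6 to 101 CPM with a median of 41.8, and in fresh-frozen HCl from 55.0 to 119 CPM with a median of 74.7. After fixation and freezing it ranged from 8.53 to 35.3 CPM with a median of 17.1, on 29 UMIs in all, and after embedding in paraffin from 100.2 to 414 CPM with a median of 217, on 226 UMIs. The lowest paraffin replicate lay just below the highest TE replicate and the remaining paraffin values were above all TE values, while HCl overlapped TE, and fixed frozen overlapped TE only in its upper values. Within CA1 and DG the paraffin replicates were all above the TE replicates, and in each region all were above the fixed frozen ones. The change in paraffin over TE on the log2 scale was 1.95 ± 0.19 (SE, adjusted p 9.58e-16), higher in 3 of 3 regions, or 2.23 to 2.28 relative to the median of all genes. Fixed frozen over TE gave -1.40 ± 0.28 (SE, adjusted p 1.30e-05), lower in 3 of 3 regions, or -1.02 to -1.01 relative to that median. Neat1 thus moved in opposite directions in the 2 kinds of fixed section. The fixed frozen replicates had only 2, 4, 1 and 1 UMIs in CA1, 1, 5, 2 and 1 in CA3 and 2, 4, 3 and 3 in DG, so single molecules moved these values. The change in paraffin over fixed frozen was 3.41 ± 0.27 (SE, adjusted p 1.68e-29), the highest of the 8 genes in that comparison. HCl over TE gave 0.61 ± 0.16 (SE, adjusted p 0.00217), higher in 3 of 3 regions and with no overlap in CA1 and DG, and the call was absent in 1 of 10 settings, where all replicates were thinned to the smallest total.

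Miat forms its own spots in the nuclei of neurons. The TE replicates of Miat ranged from 205 to 438 CPM with a median of 326, and the HCl replicates from 247 to 1087 CPM with a median of 544. The fixed frozen replicates ranged from 54.8 to 231 CPM with a median of 131, on 231 UMIs in all, and the paraffin replicates from 323 to 833 CPM with a median of 550.0, on 631 UMIs. Fixed frozen values overlapped TE values only at the top of one range and the bottom of the other, and within each region the fixed frozen replicates were all below the TE replicates. In CA1 and DG the HCl replicates and the paraffin replicates were all above the TE replicates, and in CA3 both overlapped TE. The comparison of fixed frozen with TE gave a log2 change of -1.40 ± 0.14 (SE, adjusted p 1.15e-14), lower in 3 of 3 regions, or -1.01 relative to the median of all genes. The change in HCl over TE was 0.62 ± 0.11 (SE, adjusted p 1.41e-05), higher in 3 of 3 regions, or 0.52 to 0.53 relative to the median. Miat was thus lower in fixed frozen and higher in HCl sections than in TE. For paraffin over TE the value was 0.51 ± 0.13 (SE, adjusted p 0.00109), higher in 3 of 3 regions, or 0.79 to 0.84 relative to the median. For paraffin over fixed frozen the value was 2.01 ± 0.17 (SE, adjusted p 8.72e-27), and each of these 4 calls was made in every setting run.

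Meg3 is the first of the RNAs transcribed from the maternal copy of the Dlk1-Dio3 domain. Meg3 ranged from 1600 to 2840.4 CPM with a median of 2051 in fresh-frozen TE and from 2766 to 3874 CPM with a median of 3207 in fresh-frozen HCl. It ranged from 499 to 1332 CPM with a median of 814 in fixed frozen sections, on 1395 UMIs in all, and from 2132 to 4097 CPM with a median of 3319 in paraffin, on 3522 UMIs. All 12 fixed frozen replicates lay below all others, the HCl replicates overlapped TE only at their lowest values, and within each region HCl and TE did not overlap. Fixed frozen over TE gave a log2 change of -1.43 ± 0.10 (SE, adjusted p 6.63e-22), lower in 3 of 3 regions, or -1.04 to -1.02 relative to the median of all genes. For HCl over TE the value was 0.41 ± 0.09 (SE, adjusted p 0.000338), higher in 3 of 3 regions, or 0.31 to 0.32 relative to the median, and was called in 9 of 10 settings, all but the sums of each library. Meg3 was thus lower in fixed frozen and higher in HCl sections than in TE. Paraffin over fixed frozen gave 1.83 ± 0.14 (SE, adjusted p 5.77e-31), higher in 3 of 3 regions. Paraffin over TE gave 0.29 ± 0.12 (SE, adjusted p 0.0466), higher in 3 of 3 regions, with no overlap in CA1 and CA3 and overlap in DG. This last call was made in 7 of 10 settings, from -0.02 to 0.72 with adjusted p from 8.89e-08 to 0.904, and in 2 of the 24 fits that left out 1 replicate, those without paraffin CA3 replicate 2 or 4, from 0.20 to 0.33 with adjusted p from 0.0269 to 0.206. Relative to the median of all genes it was 0.58 to 0.64, and with counts corrected for molecules that share a UMI the log2 fold change was -0.024 (adjusted p 0.904).

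Rian, the next RNA of the domain, is a host of snoRNAs. In the 12 fresh-frozen TE replicates Rian ranged from 89.5 to 254 CPM with a median of 144, and in the 12 HCl replicates from 62.9 to 346 CPM with a median of 173. In fixed frozen sections it ranged from 0 to 56.8 CPM with a median of 10.6, on 18 UMIs in all, and in paraffin from 15.6 to 100.2 CPM with a median of 35.9, on 43 UMIs. The fixed frozen replicates were all below the TE replicates, most of the paraffin replicates were too, and HCl and TE overlapped throughout. In the 2 fixed frozen replicates without a Rian UMI, a count of 0 allowed up to 27.5 CPM in 1 and 55.4 in the other. The comparison of fixed frozen with TE gave a log2 change of -3.74 ± 0.27 (SE, adjusted p 6.08e-22), the lowest of the 8, or -3.35 relative to the median of all genes. The change in paraffin over TE was -2.11 ± 0.23 (SE, adjusted p 2.26e-13), lower in 3 of 3 regions with a touching value in CA3, or -1.83 to -1.81 relative to the median. Rian was thus lower than in TE in both kinds of fixed section. The change in paraffin over fixed frozen was 1.69 ± 0.43 (SE, adjusted p 0.000975), called in 8 of 9 settings and absent after thinning, on 18 UMIs in fixed frozen and 43 in paraffin. HCl over TE gave 0.19 ± 0.15 (SE, adjusted p 0.373) and was called in no setting, and Rian was the only one of the 8 not called there.

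Mirg, the last RNA of the domain, is a host of microRNAs. Its level in fresh-frozen TE ranged from 13.5 to 49.5 CPM with a median of 30.0, and in fresh-frozen HCl from 33.5 to 81.5 CPM with a median of 55.2. After fixation and freezing it ranged from 0 to 28.2 CPM with a median of 1.63, on 10 UMIs in all, and after embedding in paraffin from 17.8 to 126 CPM with a median of 48.4, on 56 UMIs. Within CA1 and DG the HCl replicates were all above the TE replicates, whereas paraffin and TE overlapped in each region, and 6 of the 12 fixed frozen replicates were at 0. A count of 0 allowed from 12.4 to 56.8 CPM in the 6 fixed frozen replicates without a Mirg UMI. The change in HCl over TE on the log2 scale was 0.70 ± 0.16 (SE, adjusted p 0.000393), higher in 3 of 3 regions, or 0.60 relative to the median of all genes, and was absent in 1 of 10 settings, after thinning. Fixed frozen over TE gave -2.26 ± 0.40 (SE, adjusted p 1.64e-06), lower in 3 of 3 regions, or -1.88 to -1.87 relative to the median. Mirg was thus higher in HCl and lower in fixed frozen sections than in TE. For paraffin over TE the value was 0.58 ± 0.26 (SE, adjusted p 0.0686), higher in 3 of 3 regions but not called, or 0.86 to 0.90 relative to the median. It was called in 4 of 10 settings, from 0.52 to 0.91 with adjusted p from 0.00333 to 0.261, and in 3 of 24 fits that left out 1 replicate, those without TE DG replicate 1, paraffin CA3 replicate 2 or paraffin DG replicate 2, from 0.37 to 0.66 with adjusted p from 0.0435 to 0.315. For paraffin over fixed frozen the value was 2.80 ± 0.46 (SE, adjusted p 6.59e-08), higher in 3 of 3 regions.

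Snhg11 is a host of snoRNAs that is spliced and abundant in neurons. The TE replicates of Snhg11 ranged from 1114 to 2009 CPM with a median of 1574, and the HCl replicates from 2169 to 3264 CPM with a median of 2445. The fixed frozen replicates ranged from 186 to 862 CPM with a median of 493, on 782 UMIs in all, and the paraffin replicates from 1276 to 3433 CPM with a median of 2138, on 2355 UMIs. All 12 fixed frozen replicates lay below all others and all 12 HCl replicates lay above all 12 TE replicates, while paraffin overlapped both fresh-frozen conditions. For HCl over TE the log2 change was 0.60 ± 0.09 (SE, adjusted p 9.56e-07), higher in 3 of 3 regions, or 0.50 to 0.52 relative to the median of all genes, and was called in every setting run. The comparison of fixed frozen with TE gave -1.74 ± 0.12 (SE, adjusted p 3.99e-24), lower in 3 of 3 regions, or -1.35 to -1.33 relative to the median. Snhg11 was thus higher in HCl and lower in fixed frozen sections than in TE, without overlap. Paraffin over fixed frozen gave 2.12 ± 0.15 (SE, adjusted p 5.84e-37), higher in 3 of 3 regions. Paraffin over TE gave 0.27 ± 0.12 (SE, adjusted p 0.0769) and was not called, with a higher mean in 3 of 3 regions, no overlap in CA3, and 0.55 to 0.62 relative to the median. It was called in 6 of 10 settings, from 0.07 to 0.65 with adjusted p from 3.00e-06 to 0.723, and without paraffin CA3 replicate 4, with values from 0.16 to 0.32 with adjusted p from 0.0346 to 0.327 over the replicates left out in turn.

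Snhg14 is the long host of the snoRNAs of the Prader-Willi region, and its far end runs opposite to Ube3a and silences the paternal copy of that gene in neurons. Snhg14 ranged from 714 to 975 CPM with a median of 799 in fresh-frozen TE and from 660.1 to 1541 CPM with a median of 1057 in fresh-frozen HCl. It ranged from 303 to 572 CPM with a median of 457 in fixed frozen sections, on 746 UMIs in all, and from 209 to 949 CPM with a median of 552 in paraffin, on 595 UMIs. All 12 fixed frozen replicates lay below all 12 TE replicates, within CA1 and within CA3 the paraffin replicates were also all below those of TE, and within CA3 and within DG the HCl replicates were all above those of TE. Fixed frozen over TE gave a log2 change of -0.97 ± 0.11 (SE, adjusted p 9.30e-13), lower in 3 of 3 regions, or -0.58 to -0.56 relative to the median of all genes. The change in paraffin over TE was -0.95 ± 0.14 (SE, adjusted p 2.03e-08), lower in 3 of 3 regions, or -0.67 to -0.62 relative to the median. Snhg14 was thus lower than in TE in both kinds of fixed section. The change in paraffin over fixed frozen was 0.12 ± 0.15 (SE, adjusted p 0.591), and Snhg14 was the only one of the 8 not called there, with a call in 1 of 10 settings, from 0.09 to 0.36 with adjusted p from 0.0282 to 0.818. HCl over TE gave 0.26 ± 0.09 (SE, adjusted p 0.0248), higher in 3 of 3 regions, or 0.16 to 0.17 relative to the median. The HCl call was made in 7 of 10 settings, from 0.24 to 0.41 with adjusted p from 0.000197 to 0.358, and it was absent without HCl DG replicate 4 or TE DG replicate 3, with values from 0.22 to 0.30 with adjusted p from 0.00505 to 0.0663. Ube3a moved in the same direction as Snhg14 in the comparisons with TE. It gave 0.39 ± 0.09 (SE, adjusted p 0.000328) in HCl over TE, -0.67 ± 0.11 (SE, adjusted p 2.42e-07) in fixed frozen over TE, -0.96 ± 0.14 (SE, adjusted p 4.29e-09) in paraffin over TE and -0.18 ± 0.16 (SE, adjusted p 0.424) in paraffin over fixed frozen.

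**Figure D3:**
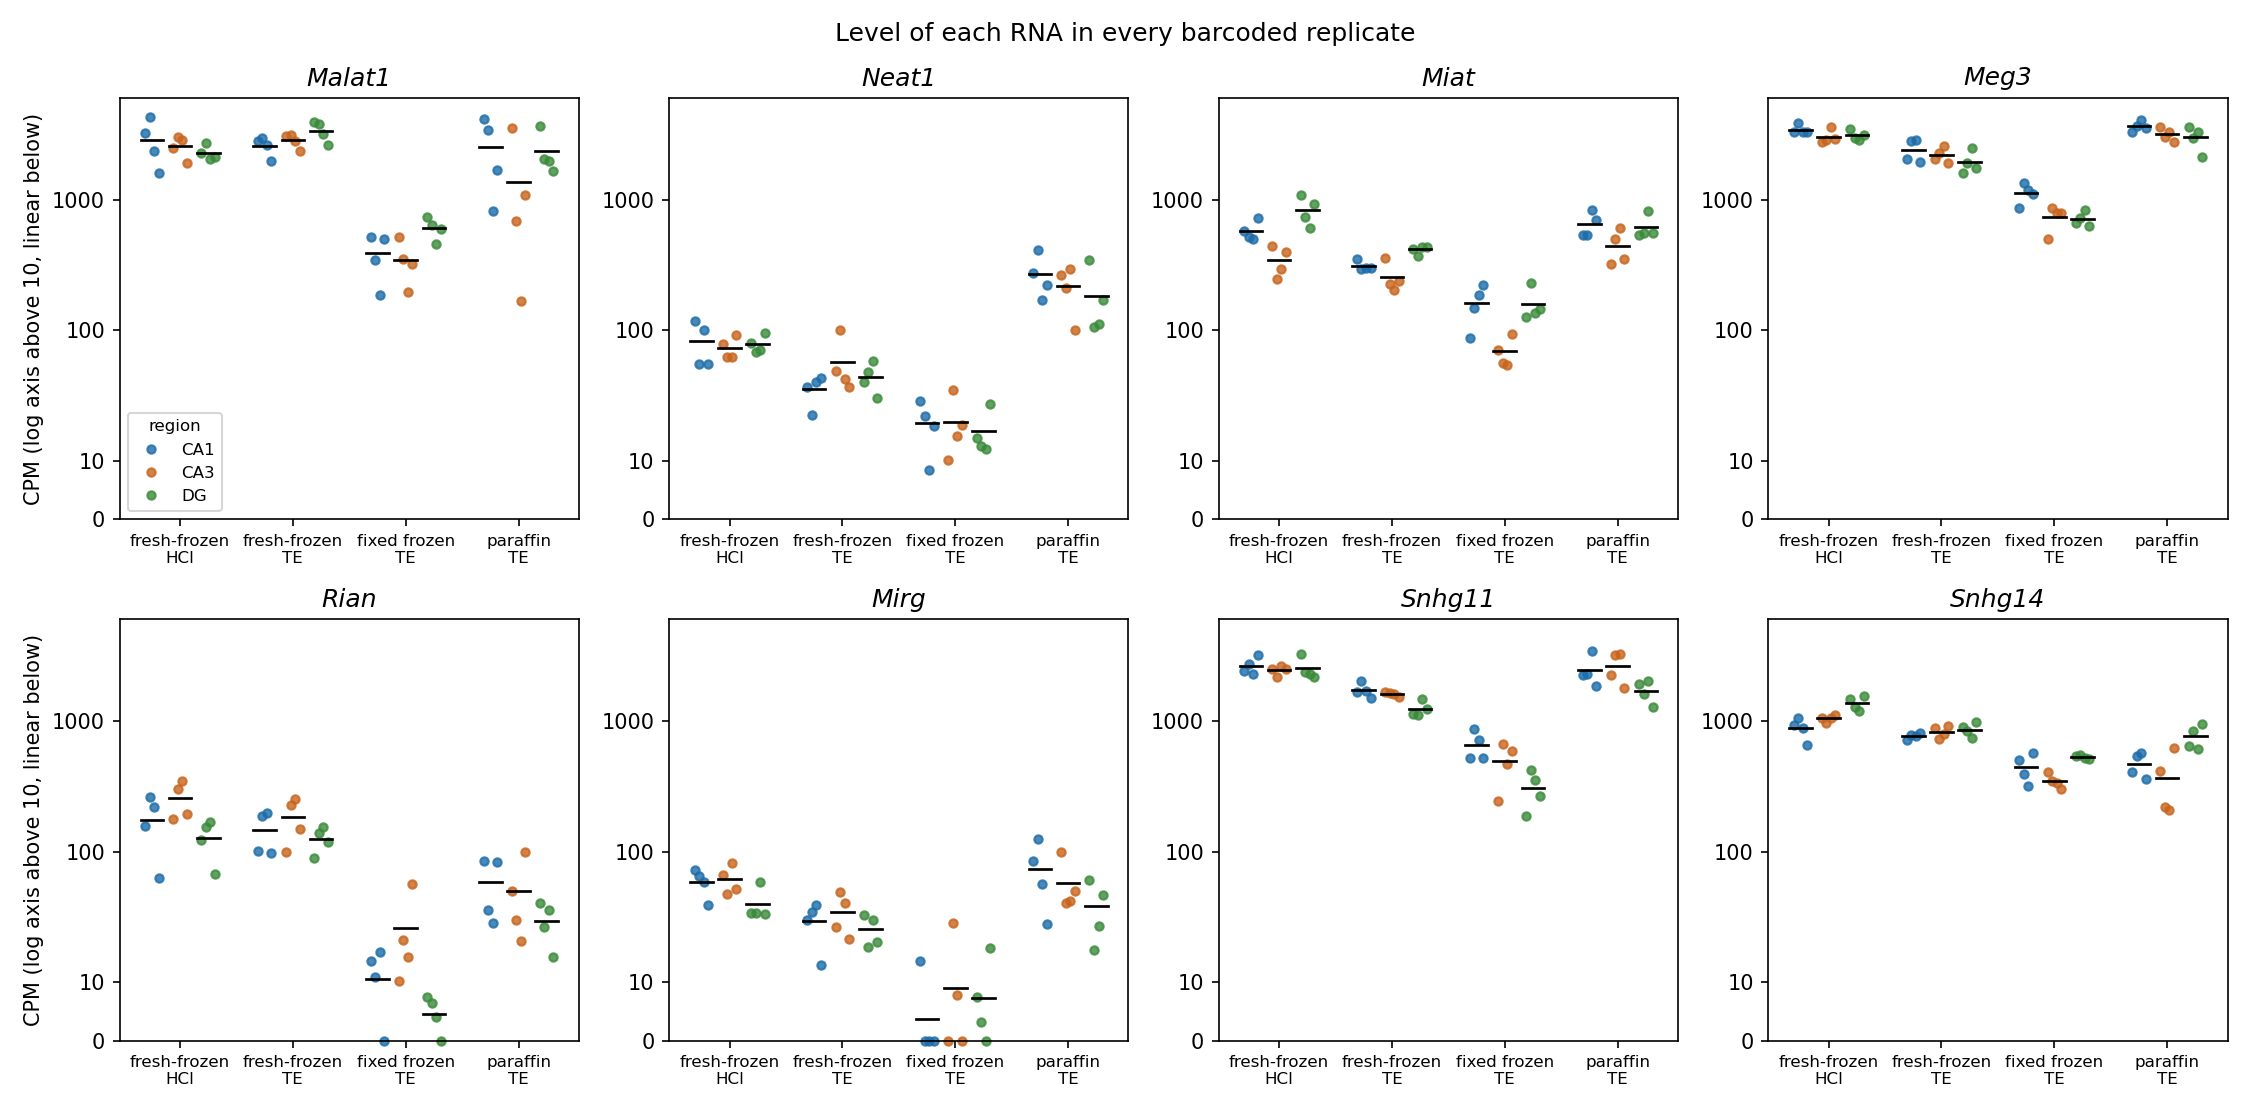
Level of each of the 8 RNAs in CPM in all 48 replicates, with the 4 histological conditions on the x axis, colours for the 3 regions, black bars for the group means and a y axis that is logarithmic above 10 CPM and linear below. The fixed frozen points of Malat1, Meg3, Rian, Snhg11 and Snhg14 lie below all fresh-frozen points of the same gene, and Mirg is at 0 in 6 fixed frozen replicates.

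The regions were then compared within each condition, with 4 replicates against 4, to ask whether an RNA differs between CA1, CA3 and DG. In HCl all 8 genes were tested, and 2 were called in CA1 over DG against 17% of all genes, 2 in CA3 over DG against 8.99%, and 1 in CA1 over CA3 against 9.13%. In TE all 8 were tested, and 1 was called in CA1 over DG against 10.1% of all genes and 2 in CA3 over DG against 7.91%. The genes called were Miat, Snhg14 and Rian in HCl and Miat and Snhg11 in TE. In CA1 over CA3 in TE edgeR called 0 against 4.4%, with 1 at an unadjusted p below 0.05, Neat1 at -0.76 ± 0.27 (SE, adjusted p 0.136), and DESeq2 called 0. Neat1 was called there without the filter on low counts and in 1 more of the 9 settings, from -1.60 to -0.72 with adjusted p from 0.0183 to 0.537. In fixed frozen sections, 3 of the 6 genes tested were called in CA1 over DG against 8.14% of all genes, 4 of 7 in CA3 over DG against 9.27%, and 2 of 7 in CA1 over CA3 against 7.2%. Mirg did not reach 10 UMIs in any of these fixed frozen comparisons, nor Rian in CA1 over DG. In paraffin 1 of 8 was called in CA3 over DG against 3.21% of all genes. In CA1 over DG in paraffin edgeR called 0 of 8 against 3.29%, with 2 at an unadjusted p below 0.05 and 0 called by DESeq2, and the smallest adjusted p was 0.127, for Snhg14 at -0.68. In CA1 over CA3 in paraffin edgeR called 0 of 8 against 2.36%, with 1 at an unadjusted p below 0.05 and 0 called by DESeq2, and the smallest adjusted p was 0.102, for Malat1. With DESeq2 size factors Malat1 was called there, at 0.88 (adjusted p 0.0479), and over the 9 settings its adjusted p ranged from 4.55e-05 to 0.747. These fits do not pair replicates of the same number across regions, whose correlation within TE was 0.18 to 0.34. With the replicate number as a block, calls of the RNAs between regions numbered 8 in HCl against 5 and 8 in TE against 3. In paraffin they numbered 6 against 1, and in fixed frozen sections 9 with and without the block.

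**Figure D4:**
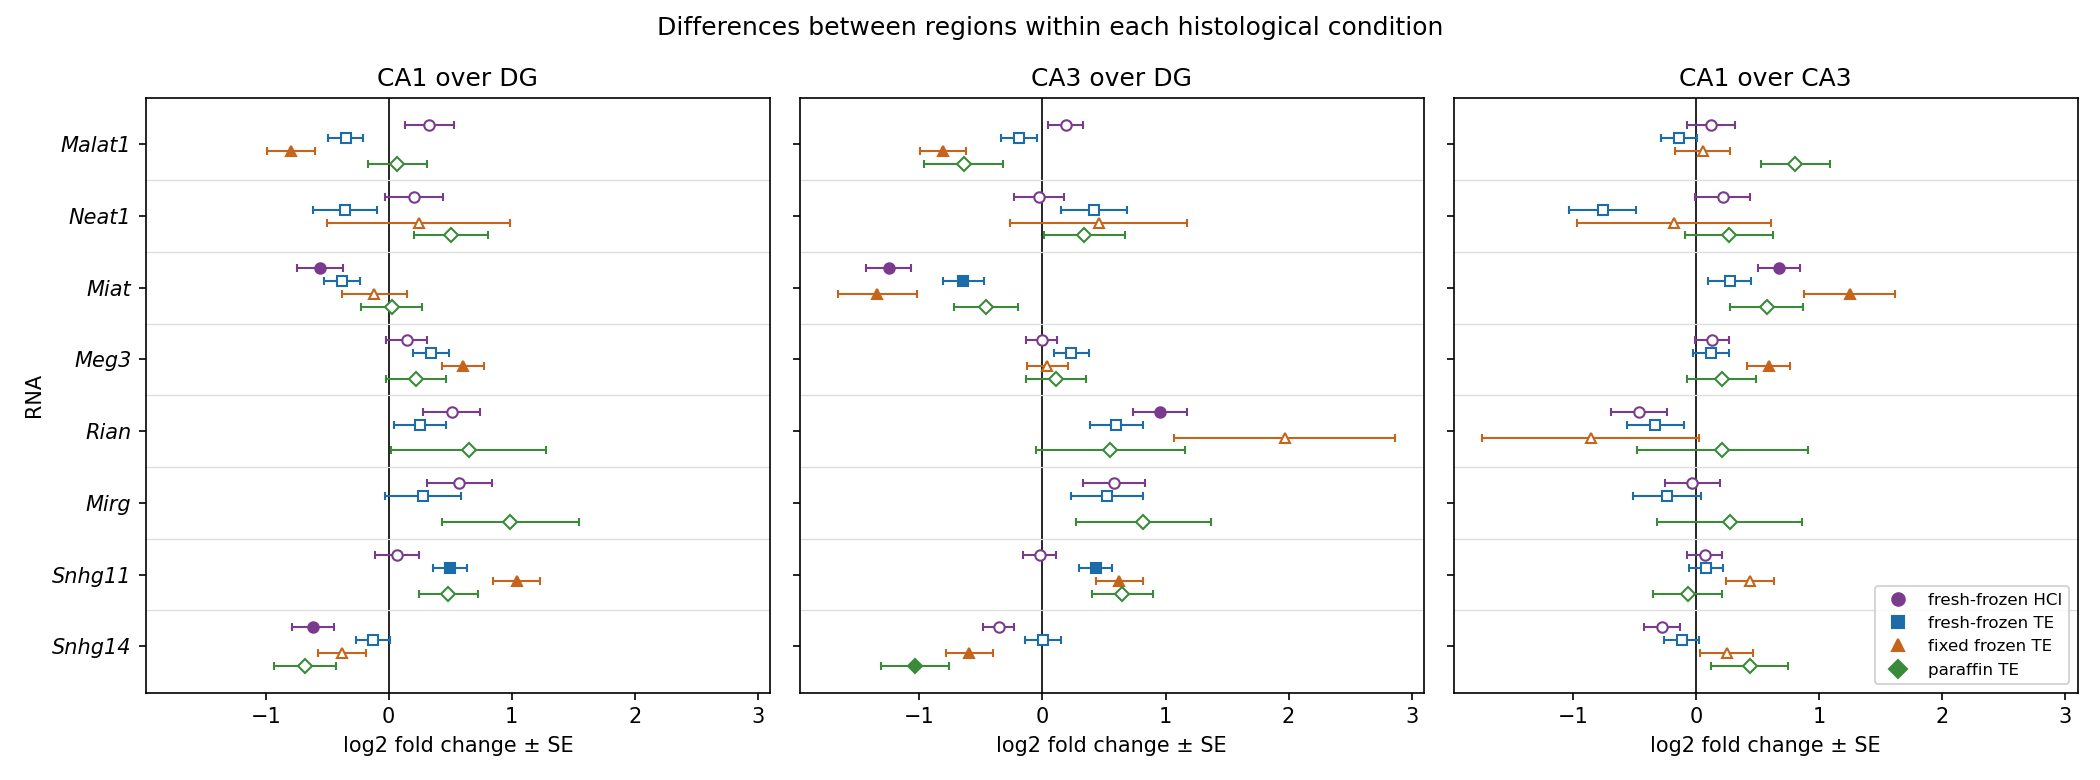
Log2 fold change of each of the 8 RNAs between regions, with a panel for each pair of regions, a marker for each histological condition, bars for the standard error and filled markers for adjusted p below 0.05; Rian and Mirg are not drawn where they were not tested. Miat has 6 filled markers of 12, and Neat1 and Mirg have none.

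Miat was called between regions in 6 of the 12 comparisons. In HCl it was at 572, 516, 502 and 723 CPM in the 4 replicates of CA1, at 439.6, 247, 294 and 397 in CA3 and at 1087, 735, 613 and 929 in DG. CA3 was lower than both other regions without overlap, and CA1 and DG overlapped. The log2 fold change was -1.25 ± 0.18 (SE, adjusted p 5.00e-05) in CA3 over DG and 0.67 ± 0.17 (SE, adjusted p 0.0103) in CA1 over CA3, both called in all settings and without any 1 replicate. In CA1 over DG it was -0.56 ± 0.18 (SE, adjusted p 0.0285), called in 6 of 9 settings, and absent without CA1 replicate 1, 2 or 3 or DG replicate 1 or 4, from -0.70 to -0.39 with adjusted p from 0.00814 to 0.16. In TE the replicates were at 349, 295, 301 and 302 CPM in CA1, 359.6, 226, 205 and 238 in CA3 and 423, 368, 436 and 438 in DG. DG lay above both other regions without overlap, while CA1 and CA3 overlapped. CA3 over DG was -0.64 ± 0.17 (SE, adjusted p 0.0144), called in 8 of 9 settings and absent without CA3 replicate 2 or 3, from -0.86 to -0.55 with adjusted p from 0.00073 to 0.0598. CA1 over DG in TE was -0.38 ± 0.15 (SE, adjusted p 0.0959), not called, but -0.41 (adjusted p 0.0422) with filterByExpr and -1.29 (adjusted p 0.0212) after thinning.

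In fixed frozen sections Miat was at 86.9, 149, 188 and 221 CPM in CA1, 71.3, 56.5, 54.8 and 94.7 in CA3 and 127, 231, 136 and 147 in DG. CA3 was below DG without overlap, and its highest replicate was above the lowest of CA1. The difference in CA3 over DG was -1.34 ± 0.32 (SE, adjusted p 0.000907), called in 8 of 9 settings and without any 1 replicate. CA1 over CA3 was 1.25 ± 0.37 (SE, adjusted p 0.0156), called in 7 of 9 settings and absent without CA1 replicate 3 or 4 or CA3 replicate 2 or 3, from 1.12 to 1.39 with adjusted p from 0.00703 to 0.0817. In paraffin the replicates of Miat were at 534, 539.9, 833 and 696 CPM in CA1, 323, 504, 607 and 351 in CA3 and 536, 560.1, 816 and 560.2 in DG, which overlapped, and none of the 3 comparisons was called.

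Snhg11 was called in 4 of 12 comparisons, each time higher in CA1 or CA3 than in DG. In TE it was at 1668, 2009, 1691 and 1508 CPM in CA1, 1673, 1633, 1618 and 1530.0 in CA3 and 1136, 1114, 1478 and 1243 in DG. All DG replicates were below all replicates of both other regions, which overlapped each other. CA1 over DG was 0.50 ± 0.14 (SE, adjusted p 0.0123), called in 8 of 9 settings and absent without CA1 replicate 2 or DG replicate 1 or 2, from 0.42 to 0.58 with adjusted p from 0.0087 to 0.068. CA3 over DG was 0.43 ± 0.14 (SE, adjusted p 0.0478), called in 4 of 9 settings and, of the 8 fits that left out 1 replicate, only in that without DG replicate 3, from 0.37 to 0.51 with adjusted p from 0.0347 to 0.194. In fixed frozen sections Snhg11 was at 521, 862, 716 and 517 CPM in CA1, 244, 671, 469.7 and 587 in CA3 and 186, 420.0, 351 and 266 in DG. CA1 was above DG without overlap, and CA3 overlapped both. CA1 over DG was 1.04 ± 0.19 (SE, adjusted p 2.32e-06), called in all settings and without any 1 replicate. The difference in CA3 over DG was 0.63 ± 0.19 (SE, adjusted p 0.0177), called in 7 of 9 settings and absent without CA3 replicate 2, 3 or 4 or DG replicate 1 or 4, from 0.37 to 0.82 with adjusted p from 0.00141 to 0.351. No comparison of Snhg11 was called in HCl or paraffin.

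Snhg14 was called in 3 of 12 comparisons, each time lower than in DG. In HCl it was at 934, 1051, 888 and 660.1 CPM in CA1, 1054, 970.3, 1060.5 and 1104 in CA3 and 1473, 1284, 1182 and 1541 in DG, and DG lay above both without overlap. CA1 over DG was -0.61 ± 0.17 (SE, adjusted p 0.00914), called in 8 of 9 settings and without any 1 replicate, and CA3 over DG was -0.36 ± 0.13 (SE, adjusted p 0.0804), not called, but -0.39 (adjusted p 0.0498) with filterByExpr. After fixation and freezing, Snhg14 was at 407, 346, 337 and 303 CPM in CA3 and 544, 547, 524 and 514 in DG, again without overlap. CA3 over DG was -0.60 ± 0.19 (SE, adjusted p 0.0257), called in 7 of 9 settings and absent without CA3 replicate 2, 3 or 4 or DG replicate 3, from -0.70 to -0.54 with adjusted p from 0.0143 to 0.072. In paraffin the replicates were at 406, 539.9, 565 and 362 CPM in CA1, 414, 222, 209 and 627 in CA3 and 644, 845, 605 and 949 in DG. The highest CA3 replicate overlapped DG, while CA1 did not. The difference in CA3 over DG was -1.04 ± 0.27 (SE, adjusted p 0.0156), called in 8 of 9 settings and absent without CA3 replicate 2 or 3 or DG replicate 2 or 4, from -1.26 to -0.86 with adjusted p from 0.00409 to 0.138.

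Malat1 was called between regions in fixed frozen sections, where it was at 521, 348, 188 and 498 CPM in CA1, 519, 353, 196 and 322 in CA3 and 738, 641, 462 and 596 in DG. The DG values were higher, but 1 or more replicates of both other regions reached into their range. CA3 over DG was -0.81 ± 0.19 (SE, adjusted p 0.000695), called in 8 of 9 settings and without any 1 replicate, from -1.11 to -0.61 with adjusted p from 1.38e-05 to 0.0467. CA1 over DG was -0.79 ± 0.20 (SE, adjusted p 0.00164), called in 7 of 9 settings and absent without CA1 replicate 3, where it was -0.54 (adjusted p 0.125). In paraffin Malat1 was at 4141, 3402, 819 and 1698 CPM in CA1 and 3647, 2054, 1995 and 1665 in DG. These overlapped each other and the CA3 values given above. CA3 over DG in paraffin was -0.64 ± 0.32 (SE, adjusted p 0.342), but -1.94 (adjusted p 6.30e-07) without CA3 replicate 1. CA1 over CA3 in paraffin was 0.81 ± 0.28 (SE, adjusted p 0.102), but 2.07 (adjusted p 5.00e-08) without CA3 replicate 1 and 1.12 (adjusted p 0.0452) without CA1 replicate 3. In HCl, CA1 over DG for Malat1 was 0.33 ± 0.20 (SE, adjusted p 0.271), and 0.51 (adjusted p 0.0352) without CA1 replicate 4. That replicate had 127253 UMIs and a mitochondrial share of 8.26%, against at least 610016 UMIs and at most 3.56% in its group otherwise. The shares of the others are understated, since mt-Rnr2 was at 4294 to 4356 UMIs in them, against 2701 in replicate 4. The oligodendrocyte genes of replicate 4 were at 20251 CPM, against at most 12398. The part of these differences was not tested. In TE, CA1 over DG for Malat1 gave -0.35 ± 0.14 (SE, adjusted p 0.128), and -0.46 (adjusted p 0.0415) without DG replicate 4. Single replicates thus changed several of these results for Malat1.

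Meg3 was also called between regions in fixed frozen sections, at 869, 1332, 1176 and 1107 CPM in CA1, 499, 868, 791 and 795 in CA3 and 663, 719.5, 833 and 633 in DG. All CA1 replicates were above all replicates of both other regions, which overlapped. CA1 over DG was 0.60 ± 0.17 (SE, adjusted p 0.00783), called in all settings and absent without CA1 replicate 2, where it was 0.52 (adjusted p 0.0744). CA1 over CA3 was 0.59 ± 0.17 (SE, adjusted p 0.0157), called in 7 of 9 settings and absent without CA1 replicate 2 or 3 or CA3 replicate 1 or 3, from 0.45 to 0.67 with adjusted p from 0.00743 to 0.171. For Meg3 in TE, CA1 over DG was 0.34 ± 0.15 (SE, adjusted p 0.148), and 0.47 (adjusted p 0.0472) without DG replicate 3 and 0.50 (adjusted p 0.0448) with counts corrected for shared UMIs. Rian was called in 1 of the 11 comparisons in which it was tested. In HCl it was at 157, 264, 221 and 62.9 CPM in CA1, 178, 304, 346 and 194 in CA3 and 122, 154, 168 and 67.0 in DG. CA3 was above DG without overlap, and CA1 overlapped both. The difference in CA3 over DG was 0.95 ± 0.22 (SE, adjusted p 0.00551), called in 8 of 9 settings and without any 1 replicate. CA1 over DG in HCl was 0.51 ± 0.23 (SE, adjusted p 0.128), and 0.66 (adjusted p 0.0312) without CA1 replicate 4. That replicate, as given for Malat1, stood apart in total UMIs, mitochondrial share and oligodendrocyte genes. CA3 over DG in TE was 0.60 ± 0.21 (SE, adjusted p 0.0864), and 0.79 (adjusted p 0.00783) without CA3 replicate 1 and 0.62 (adjusted p 0.0129) without the filter. After fixation and freezing, on 1, 3, 2 and 3 UMIs in CA3 and 1, 2, 1 and 0 in DG, CA3 over DG was 1.97 ± 0.90 (SE, adjusted p 0.171), not called.

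Neat1 was called in 0 of 12 and Mirg in 0 of 9 comparisons between regions by edgeR, with 1 and 2 at an unadjusted p below 0.05, and DESeq2 called 0 of either. In paraffin Neat1 was at 277, 414, 169.5 and 223 CPM in CA1, from 13, 23, 12 and 8 UMIs, at 265, 212, 293 and 100.2 in CA3 and at 346, 107, 112 and 171 in DG. The 3 regions overlapped, with 1 high replicate in DG. CA1 over DG was 0.51 ± 0.30 (SE, adjusted p 0.47), and 1.17 (adjusted p 0.0267) without DG replicate 1. That replicate had 13253 CPM of choroid plexus genes, against at most 862 in the rest of its group. Its oligodendrocyte genes were at 18026 CPM, against at most 12999. The part of these differences was not tested.

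Whether the difference between regions itself changed among the 4 conditions was tested with an interaction over all 48 replicates. For CA1 over DG, edgeR called 0 of 8 genes against 1.9% of all genes, with 2 at an unadjusted p below 0.05 and a smallest adjusted p of 0.153, for Snhg11. For CA3 over DG it called 0 of 8 against 0.736%, with 3 at an unadjusted p below 0.05 and a smallest adjusted p of 0.107, for Snhg14. Of the 5 alternatives, DESeq2 size factors, total UMIs and thinned counts also gave 0 and 0, and the other 2 did not. Counts corrected for shared UMIs gave 0 and 2, Malat1 (adjusted p 0.0312) and Snhg14 (adjusted p 0.0265). The replicate number as a block gave 2 and 2. For CA1 over DG these were Malat1 (adjusted p 0.0172) and Snhg11 (adjusted p 0.0267). For CA3 over DG they were Malat1 (adjusted p 0.000311) and Snhg14 (adjusted p 0.0227).

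The 12 group means give an order of levels for each gene, and neighbours in this order were compared by an exact two-sided permutation test of 4 against 4 replicates, whose smallest possible p is 0.0286. The means are of counted UMIs, so high groups of Malat1, Meg3 and Snhg11 may change places if shared UMIs are allowed for. Malat1 was highest in TE DG at 3372 ± 605 CPM (mean ± SD, n = 4) and lowest in fixed frozen CA3 at 347 ± 133, and 0 of its 11 pairs of neighbours differed at an exact p below 0.05, the smallest being 0.0857. Neat1 was highest in paraffin CA1 at 271 ± 105 CPM and lowest in fixed frozen DG at 16.96 ± 7.12, and again 0 of 11 pairs differed. Miat was highest in HCl DG at 841 ± 209 CPM and lowest in fixed frozen CA3 at 69.3 ± 18.5, and of its 11 pairs only fixed frozen DG and fixed frozen CA3 differed. Neighbours in a sorted order lie close by construction, so a pair that does not differ says little about the order as a whole. Meg3 was highest in paraffin CA1 at 3640.4 ± 342 CPM and lowest in fixed frozen DG at 712 ± 88.2, with steps between TE DG and fixed frozen CA1 and between fixed frozen CA1 and CA3. Rian was highest in HCl CA3 at 255 ± 82.2 CPM and lowest in fixed frozen DG at 4.52 ± 3.32, with 1 step, between TE DG and paraffin CA1. Mirg was highest in paraffin CA1 at 73.9 ± 41.9 CPM and lowest in fixed frozen CA1 at 3.62 ± 7.24, and 0 of its 11 pairs differed, the smallest exact p being 0.0857. For each RNA of the Dlk1-Dio3 domain the highest group overlapped the next one. Snhg11 was highest in HCl CA1 at 2654 ± 394 CPM and lowest in fixed frozen DG at 306 ± 101, with 3 steps, between HCl CA3 and TE CA1, TE CA3 and TE DG, and TE DG and fixed frozen CA1. Snhg14 was highest in HCl DG at 1369.9 ± 166 CPM and lowest in fixed frozen CA3 at 348 ± 43.5, with steps between HCl DG and HCl CA3 and between paraffin DG and fixed frozen DG.

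The genes with the most similar pattern were found by Pearson's r of log2(mean CPM + 10) over the 12 group means, among 9746 genes with a mean of at least 10 CPM, as a description without a test. The group means share libraries and differ in depth. For Malat1 they were Baz2b (r = 0.984) and Luc7l2 (r = 0.978), for Neat1 Sirpa (r = 0.957) and Gm45501 (r = 0.953) and for Miat Fbrsl1 (r = 0.982) and Ccnt2 (r = 0.965). For Meg3 they were C130023A14Rik (r = 0.961) and Amy1 (r = 0.946), for Rian Birc6 (r = 0.964) and Zswim6 (r = 0.963) and for Mirg Gm42639 (r = 0.983) and Fnbp1 (r = 0.960). For Snhg11 they were Gm48015 (r = 0.973) and Fam219a (r = 0.940), and for Snhg14 Gm37255 (r = 0.975) and Map3k1 (r = 0.970).

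Related genes were taken from lists and are given as the number called higher and lower of the genes tested with the median log2 fold change, beside medians over all genes of 0.10 in HCl over TE, -0.39 in fixed frozen over TE, -0.28 in paraffin over TE and 0.05 in paraffin over fixed frozen. In the same order, 16.2%, 15.8%, 13% and 13.7% of all genes were called higher. Those called lower were 14.3%, 32.9%, 26.4% and 14.4%. A list of 11 other noncoding RNAs that act in the nucleus moved in both directions. The list had 4 higher and 1 lower of 11 (median 0.04) in HCl over TE, 3 higher and 3 lower of 9 (median 0.14) in fixed frozen over TE, 5 higher and 1 lower of 9 (median 0.54) in paraffin over TE and 5 higher and 0 lower of 8 (median 1.18) in paraffin over fixed frozen. Within it Kcnq1ot1, the RNA of an imprinted locus, gave -2.45 ± 0.16 (SE, adjusted p 1.93e-24) in fixed frozen over TE, whereas Firre, which organizes chromatin contacts, gave 2.20 ± 0.41 (SE, adjusted p 4.85e-06). In paraffin over TE Kcnq1ot1 gave -1.15 ± 0.17 (SE, adjusted p 4.89e-09) and Firre 4.55 ± 0.27 (SE, adjusted p 3.98e-29). A list of 15 noncoding RNAs that are cytoplasmic or spliced hosts of snoRNAs was also called in both directions in fixed frozen sections, as were all genes. It had 4 higher and 3 lower of 14 (median 0.26) in HCl over TE, 4 higher and 4 lower of 13 (median 0.01) in fixed frozen over TE, 4 higher and 2 lower of 13 (median 0.36) in paraffin over TE and 4 higher and 0 lower of 13 (median 0.39) in paraffin over fixed frozen. Of its genes, Bc1 was at 0 in all TE replicates and had 11 UMIs in HCl, which is at least 3.71-fold higher when 3 counts are allowed over the group, and the median in HCl over TE was the same, 0.26, with Bc1 at that bound. Oip5os1 gave -1.14 ± 0.09 (SE, adjusted p 2.31e-14) in HCl over TE, opposite in direction to the 6 RNAs called higher there.

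The proteins of the bodies in which Malat1 and Neat1 are found are encoded by messenger RNAs in the same table. The 11 genes of nuclear speckle proteins had 4 higher and 2 lower of 11 (median 0.30) in HCl over TE, 1 higher and 5 lower of 11 (median -0.24) in fixed frozen over TE, 2 higher and 3 lower of 11 (median 0.25) in paraffin over TE and 5 higher and 0 lower of 11 (median 0.37) in paraffin over fixed frozen. Pnisr, a splicing regulator of the speckles, gave -2.18 ± 0.13 (SE, adjusted p 2.89e-26) in fixed frozen over TE and Srrm2, a core protein of the speckles, -1.35 ± 0.11 (SE, adjusted p 1.64e-18). Of all genes, 32.9% were called lower and 15.8% higher there, and the median of the list lay above that of all genes. Genes of paraspeckle proteins were called in both directions in every comparison. The 10 genes had 1 higher and 4 lower of 10 (median -0.20) in HCl over TE, 3 higher and 3 lower of 10 (median -0.20) in fixed frozen over TE, 2 higher and 3 lower of 10 (median -0.19) in paraffin over TE and 4 higher and 2 lower of 10 (median 0.02) in paraffin over fixed frozen. Nono gave 1.79 ± 0.18 (SE, adjusted p 1.23e-14) in fixed frozen over TE.

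Of 5 neighbours of Meg3 in the Dlk1-Dio3 domain, 4 were tested in HCl over TE. They had 1 higher and 0 lower of 4 (median 0.31) in HCl over TE, 0 higher and 1 lower of 4 (median -0.91) in fixed frozen over TE, 1 higher and 0 lower of 4 (median -0.31) in paraffin over TE and 0 higher and 0 lower of 2 (median 0.32) in paraffin over fixed frozen. The 1 called lower in fixed frozen sections was Rtl1, a gene read from the paternal copy of the domain, which had 29 UMIs in TE and 0 in fixed frozen and so was at least 2.01-fold lower, taking 3 counts over the group as the limit of a count of 0. With Rtl1 at that limit the median of the list there was -0.62. Begain, at the edge of the domain, gave 0.24 ± 0.18 (SE, adjusted p 0.265) in fixed frozen over TE. Of 7 neighbours of Snhg14 in the Prader-Willi region, 6 were tested in HCl over TE. They had 1 higher and 1 lower of 6 (median 0.02) in HCl over TE, 1 higher and 1 lower of 4 (median 0.38) in fixed frozen over TE, 0 higher and 2 lower of 4 (median -0.30) in paraffin over TE and 0 higher and 2 lower of 3 (median -0.80) in paraffin over fixed frozen. Snrpn, which lies upstream of Snhg14 and shares its transcription, gave 0.92 ± 0.11 (SE, adjusted p 2.68e-11) in fixed frozen over TE, the opposite direction to Snhg14.

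Cell-type markers also moved between the conditions. The 7 oligodendrocyte genes had 4 higher and 0 lower of 7 (median 0.32) in HCl over TE, 1 higher and 5 lower of 7 (median -0.63) in fixed frozen over TE, 6 higher and 0 lower of 7 (median 0.90) in paraffin over TE and 7 higher and 0 lower of 7 (median 1.68) in paraffin over fixed frozen. Their summed level ranged from 3620.0 to 20251 CPM in HCl, 2798 to 11236 in TE, 2065 to 18129 in fixed frozen and 6115 to 24417 in paraffin. Oligodendrocyte genes were thus mostly lower in fixed frozen and higher in paraffin sections than in TE. The 6 astrocyte genes had 1 higher and 4 lower of 6 (median -0.38) in HCl over TE, 0 higher and 5 lower of 6 (median -1.29) in fixed frozen over TE, 1 higher and 5 lower of 6 (median -1.58) in paraffin over TE and 1 higher and 1 lower of 6 (median 0.25) in paraffin over fixed frozen. The 5 neuron genes had 1 higher and 4 lower of 5 (median -0.51) in HCl over TE, 2 higher and 3 lower of 5 (median -0.80) in fixed frozen over TE, 2 higher and 3 lower of 5 (median -1.05) in paraffin over TE and 2 higher and 0 lower of 5 (median 0.09) in paraffin over fixed frozen. Astrocyte genes were mostly lower than in TE in the other conditions, while neuron genes were called in both directions. The mean summed level of the neuron genes was 4502 CPM in HCl, 5719 in TE, 4923 in fixed frozen and 6519 in paraffin, with Snap25 or Syt1 the most abundant. The 6 endothelial genes had 5 higher and 0 lower of 6 (median 0.65) in HCl over TE, 0 higher and 4 lower of 6 (median -1.61) in fixed frozen over TE, 0 higher and 2 lower of 6 (median -0.68) in paraffin over TE and 1 higher and 0 lower of 5 (median 0.07) in paraffin over fixed frozen. The part of these changes in the values of the 8 RNAs was not tested.

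Markers of other cell types and of the regions moved between the conditions as well. The 7 microglia genes had 2 higher and 2 lower of 7 (median -0.32) in HCl over TE, 1 higher and 1 lower of 7 (median -0.22) in fixed frozen over TE, 0 higher and 5 lower of 7 (median -1.09) in paraffin over TE and 0 higher and 1 lower of 7 (median -0.91) in paraffin over fixed frozen. The 4 choroid plexus genes had 0 higher and 0 lower of 4 (median 0.14) in HCl over TE, 0 higher and 2 lower of 3 (median -1.45) in fixed frozen over TE, 0 higher and 0 lower of 3 (median -0.02) in paraffin over TE and 2 higher and 0 lower of 3 (median 1.59) in paraffin over fixed frozen. The 6 interneuron genes had 1 higher and 3 lower of 6 (median -0.36) in HCl over TE, 2 higher and 3 lower of 6 (median -0.33) in fixed frozen over TE, 0 higher and 1 lower of 6 (median -0.15) in paraffin over TE and 2 higher and 1 lower of 6 (median -0.35) in paraffin over fixed frozen. Microglia genes were thus mostly called lower in paraffin than in TE, and the choroid plexus and interneuron lists had few calls there. Of the 4 erythrocyte genes, 3 were tested in HCl over TE, and they had 0 higher and 2 lower of 3 (median -0.59) in HCl over TE, 0 higher and 3 lower of 3 (median -4.23) in fixed frozen over TE, 0 higher and 3 lower of 3 (median -5.49) in paraffin over TE and 0 higher and 0 lower of 1 (median -0.53) in paraffin over fixed frozen. Their mean summed level was 259 CPM in HCl, 431 in TE, 18.2 in fixed frozen and 6.23 in paraffin, and all of them were at 0 in the 4 replicates of paraffin CA1. Every erythrocyte gene tested was thus called lower in both kinds of fixed section than in TE. The CA1 genes had 0 higher and 1 lower of 6 (median -0.02) in HCl over TE, 0 higher and 0 lower of 6 (median -0.05) in fixed frozen over TE, 0 higher and 4 lower of 6 (median -0.71) in paraffin over TE and 0 higher and 3 lower of 6 (median -0.74) in paraffin over fixed frozen. The CA3 genes had 3 higher and 1 lower of 7 (median -0.13) in HCl over TE, 2 higher and 2 lower of 7 (median 0.01) in fixed frozen over TE, 1 higher and 1 lower of 7 (median 0.01) in paraffin over TE and 1 higher and 1 lower of 7 (median 0.19) in paraffin over fixed frozen. The DG genes had 3 higher and 1 lower of 8 (median 0.34) in HCl over TE, 3 higher and 1 lower of 8 (median 0.32) in fixed frozen over TE, 0 higher and 5 lower of 8 (median -0.98) in paraffin over TE and 0 higher and 4 lower of 8 (median -0.74) in paraffin over fixed frozen.

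Oligodendrocyte genes also differed between regions. In CA1 over DG they had 7 higher and 0 lower of 7 (median 1.52) in HCl, 7 higher and 0 lower of 7 (median 1.62) in TE, 7 higher and 0 lower of 7 (median 2.41) in fixed frozen and 3 higher and 0 lower of 7 (median 0.69) in paraffin. In CA3 over DG they had 7 higher and 0 lower of 7 (median 1.5) in HCl, 7 higher and 0 lower of 7 (median 1.55) in TE, 5 higher and 0 lower of 7 (median 0.90) in fixed frozen and 1 higher and 0 lower of 7 (median 0.54) in paraffin. The mean summed level in CA1, CA3 and DG was 13366, 9584 and 4324 CPM in HCl, 8156, 7409.8 and 3191 in TE, 11474, 5226 and 2545 in fixed frozen and 18359.5, 14212 and 11541 in paraffin. Their mean was lowest in DG in all 4 conditions, and their part in the region differences of the 8 RNAs was not tested.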

How the data were processed

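The 8 genes were measured in 48 barcoded replicates of mouse hippocampus, 4 in each of 12 groups, which were taken from the titles of the libraries. The authors deposited counts of unique molecular identifiers per gene, made with UMI-tools 1.0.0, HISAT2 2.1.0 and featureCounts 1.6.4 on GRCm38. The annotation release is not given in the sources used here. Replicate totals ranged from 35932 to 1111804 UMIs, so 1 UMI was worth more CPM in the shallow fixed samples, and 0 UMIs allow up to 3. Genes with at least 10 UMIs over the fitted replicates were tested by the quasi-likelihood test of edgeR 4.0.16 in R 4.3.3 with TMM factors, and p-values were adjusted over all genes tested by the Benjamini-Hochberg method. Regions were compared within each condition, conditions with region as a covariate, and the change of region effects among conditions by an F test. Single values were compared by exact two-sided permutation tests with scipy 1.17.1.

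The alternatives were DESeq2 1.42.0, its size factors or total UMIs in edgeR, no filter or filterByExpr, the replicate number as a block, counts corrected for shared UMIs, counts thinned to 35932 UMIs in 1 random draw, more replicates in the fit, sums of each library, and leaving out each replicate in turn. Positions, transcripts and sequences came from GENCODE M21, which matched 32515 of 32546 gene identifiers, and whether it is the annotation the authors used is not known. Single values of 2 list genes and 1 transcript sequence are not reported here. The fitting code was tested on simulated data. The genes named are the 8 RNAs in every comparison, members of the lists of related and cell-type genes where their list is described, and for each RNA the 2 genes with the most similar pattern over the 12 group means. The RNAs and the lists were chosen with earlier results of these data known. All 8 RNAs passed the filter in the comparisons of conditions, and 6 to 8 did so in those of regions.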

Additional observations from a re-analysis of the deposited data

Results flagged for a closer look

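Each group of 4 replicates was examined for a single replicate whose gap to its nearest neighbour took up most of the range of the group. This was seen in 8 of the 96 combinations of gene and group and in 0 of the 12 groups for total UMIs, where chance gives about 1 in 20 groups. Meg3 stood apart at 3874 CPM in HCl CA1 replicate 2 and at 3597 CPM in HCl CA3 replicate 3, both high. Mirg stood apart at 58.4 CPM in HCl DG replicate 3 and at 99.3 CPM in paraffin CA3 replicate 1. Its 14.5 CPM in fixed frozen CA1 replicate 1 met the rule on 1 UMI, but the other 3 replicates were at 0, which allows from 16.6 to 55.4 CPM, so it cannot be said to stand apart. Miat was high at 349 CPM in TE CA1 replicate 1 and at 816 CPM in paraffin DG replicate 3. Neat1 was high at 27.5 CPM in fixed frozen DG replicate 4, which rested on 3 UMIs. The causes were not tested.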

How the results depend on the processing

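Over the alternatives run, most values kept their direction and their side of the threshold. Of the values of single genes when 1 replicate was left out, 687 of 736 between regions and 735 of 768 between conditions kept their side of the threshold, while 40 and 29 were no longer called and 9 and 4 became called. Most results between regions were not called, and the 40 losses fell on the fewer that were. The share kept was therefore lower among the called results between regions. Between regions 48 of the values changed sign, all for results that were not called. The only called change of sign was Meg3 in paraffin over fresh-frozen TE, 0.29 as reported and -0.024 with counts corrected for shared UMIs (adjusted p 0.904). The cause was not tested.

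Among the 8 RNAs, calls between regions numbered 5 in HCl, and 8 with the replicate number as a block and 2 after thinning. In TE there were 3, and 8 with the block, 1 after thinning and 1 to 4 with 1 replicate left out, the 1 without DG replicate 1 or 2 or CA3 replicate 2 or 3. In fixed frozen sections there were 9, and 3 after thinning, 4 with DESeq2 and 5 to 9 with 1 replicate left out, the 5 without CA3 replicate 3. In paraffin there was 1, and 2 with DESeq2 size factors, 6 with the block, 0 after thinning and 0 to 3 with 1 replicate left out. It was 0 without DG replicate 2 or 4 or CA3 replicate 2 or 3, 2 without CA1 replicate 3 or DG replicate 1, and 3 without CA3 replicate 1. The 6 called higher in HCl over TE became 3 after thinning. The 1 called lower there became 0 with size factors, total UMIs, corrected counts, thinning, DESeq2, filterByExpr, all 48 replicates or library sums, and 0 to 1 with 1 replicate left out, the 0 without HCl CA3 replicate 4, HCl DG replicate 3 or 4, or TE DG replicate 1 or 2. The 3 called higher in paraffin over TE became 5 with size factors, total UMIs, DESeq2 or filterByExpr. The 0 interactions became 2 for CA1 over DG (Malat1 and Snhg11) and 2 for CA3 over DG (Malat1 and Snhg14) with the block, and 2 for CA3 over DG with corrected counts. Thinning leaves fewer counts, and for the rest the cause was not tested.

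The block assumes that replicates with the same number belong together. Among 120 pairs of replicates with the same number, the deviations from the group means correlated across genes above 0.1 in 51, with a median of 0.0857 over all pairs, most of which join different conditions. The correlation was 0.18 to 0.34 in all 12 pairs within TE and 0.23 to 0.43 in the 4 pairs of CA3 with DG in HCl. Between HCl and TE it was 0.26 to 0.37 in the 4 pairs of CA3 and 0.17 to 0.34 in the 4 pairs of DG. In 75 of the 120 pairs the correlation was higher than with any replicate of another number in the second library.

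Calls among all genes changed by more than 1.5 times as well. Thinning gave 647 against 5550 in HCl over TE, 2568 against 7733 in fixed frozen over TE, 2387 against 6328 in paraffin over TE and 1442 against 3419 in paraffin over fixed frozen. With filterByExpr these were 4367, 3776 and 1596 for the last 3. For the interactions the block gave 706 against 359 and 261 against 139, and thinning 50 and 28. Between regions, in the order CA1 over DG, CA3 over DG and CA1 over CA3, thinning gave 246, 126 and 103 against 2526, 1363 and 1428 in HCl, 143, 104 and 69 against 1420, 1138 and 640 in TE, and 218, 252 and 213 against 764, 867 and 597 in fixed frozen sections. In paraffin it gave 104 against 295 in CA1 over DG and 150 against 301 in CA3 over DG. DESeq2 gave 385, 482 and 292 in fixed frozen sections, 110, 149 and 89 in paraffin, where the last is against 177, and 1621 in CA1 over DG in HCl. The block gave 2619 in CA3 over DG in HCl and 2262, 1946 and 1222 in TE. In CA1 over DG filterByExpr gave 501 in fixed frozen sections and 142 in paraffin. Single replicates also moved these counts. CA1 over CA3 in HCl gave 937 without CA1 replicate 3, CA3 over DG in TE 715 without DG replicate 2 and CA1 over DG in fixed frozen sections 488 without CA1 replicate 2. In paraffin CA1 over DG gave 195 without DG replicate 2, and CA3 over DG 172 without CA3 replicate 2 and 174 without DG replicate 2. CA1 over CA3 there gave 95, 116 and 101 without CA1 replicate 1, 2 and 4, and 273 and 105 without CA3 replicate 1 and 2.

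The rarer RNAs had few counts after fixation and freezing. Over the 12 fixed frozen replicates Mirg had 10 UMIs, Rian 18 and Neat1 29. The size of difference that such counts can detect was not tested.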
